A study of Mus musculus with 33 samples.

Results

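The genes described are the mouse Zbtb, Zkscan and Zscan zinc finger genes. They were chosen by name alone, as every gene symbol of the deposited count table that starts with Zbtb, Zkscan or Zscan and goes on with a number and at most 1 letter. The rule found 62 of 26621 symbols: 37 Zbtb, 9 Zkscan and 16 Zscan genes. In the RefSeq annotation of GRCm38.p6 they lie on 16 chromosomes, with 13 of them on chromosome 7.

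The cells were hippocampal neural stem cells taken at postnatal day 0.5 and grown in a medium with the growth factors bFGF and EGF. Groups of 3 libraries each came from cells with the genotype label Nestin-cKO, a conditional knockout of Ythdf2, and from Nestin-WT cells, after actinomycin D, which blocks transcription, at 5 µM for 0, 2 and 4 h. The label of the knockout names Nestin, a gene of neural progenitors, and the 0 h libraries carry the label of the drug as well. Untreated Nestin-WT cells gave 3 libraries of RNA pulled down with an antibody to N6-methyladenosine (m6A) and 3 inputs, and 3 libraries each of RNA pulled down with an antibody to YTHDF2, of an IgG control and of the matching input. The study compared the level and the loss of transcripts between genotypes and asked which transcripts carry m6A or bind YTHDF2. No label says whether replicates came from separate animals or cultures, so p-values measure the spread between these libraries, which may be technical.

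Proteins of the 3 families bind DNA through C2H2 zinc fingers, and most act in the nucleus as repressors or activators of transcription. Zbtb proteins carry a BTB (POZ) domain at the amino end, which pairs the proteins and recruits corepressors. Zkscan and Zscan proteins carry a SCAN domain, which pairs SCAN proteins with each other, and Zkscan proteins usually carry a KRAB domain too, which recruits the corepressor TRIM28. Transcripts of zinc finger regulators are often short-lived. m6A is a methyl mark on adenosines of messenger RNA, and YTHDF2 is a reader protein that binds marked transcripts and promotes their decay.

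Zkscan1 and Zscan21 are neighbours on chromosome 5 and had the highest levels of the 62 genes in WT cells at 0 h. Their promoters are printed because both genes had lower levels in the libraries labelled cKO at that hour. That of Zbtb6 is printed because it holds the GC box and the ETS core, both commoner in these genes than in all genes. Its RNA was also higher in the m6A and YTHDF2 pull-downs. The sequences are from RefSeq (GRCm38.p6), run 5′ to 3′ on the gene's strand and end at most 30 bases inside the annotated gene. Capitals mark matches on either strand to the GC box GGGCGG or the ETS core CCGGAAG.
Zkscan1 (chr5:138084834-138085079, + strand): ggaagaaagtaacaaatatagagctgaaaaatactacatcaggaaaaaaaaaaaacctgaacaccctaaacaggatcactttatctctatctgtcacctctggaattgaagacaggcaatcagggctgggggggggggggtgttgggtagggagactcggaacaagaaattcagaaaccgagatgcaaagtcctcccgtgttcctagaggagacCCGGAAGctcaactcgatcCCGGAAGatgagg
Zscan21 (chr5:138116655-138116904, + strand): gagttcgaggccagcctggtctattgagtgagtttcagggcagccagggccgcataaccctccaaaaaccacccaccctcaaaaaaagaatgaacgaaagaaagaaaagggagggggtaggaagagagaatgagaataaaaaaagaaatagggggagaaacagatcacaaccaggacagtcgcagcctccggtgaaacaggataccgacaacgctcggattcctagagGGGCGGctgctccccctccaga
Zbtb6 (chr2:37430920-37431169, - strand): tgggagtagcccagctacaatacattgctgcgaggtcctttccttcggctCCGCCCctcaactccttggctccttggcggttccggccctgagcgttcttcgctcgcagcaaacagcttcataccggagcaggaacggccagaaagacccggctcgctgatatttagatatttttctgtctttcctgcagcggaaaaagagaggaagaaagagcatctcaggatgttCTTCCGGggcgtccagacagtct
The Zkscan1 window held 2 ETS cores, the Zscan21 window 1 GC box, and the Zbtb6 window 1 of each on the other strand.

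A promoter was listed for 49 of the 62 genes, and each was searched over the 250 bases before the start, on both strands, with a match in any listed start of a gene counted. The GC box GGGCGG was found in 27 of the 49 genes (55.1%), against 35.4% of all 27025 genes in the table. The ETS core CCGGAAG was found in 13 (26.5%), against 7.83% of all genes. The NRF1 core GCATGCGC was found in 4 (8.16% against 2.56%) and the E-box CACGTG in 4 (8.16% against 6.86%). The CCAAT box was found in 19 (38.8% against 37.5%) and the TATA box TATAAA in 6 (12.2% against 14.3%). Of those 6, Zscan4b, Zscan4c, Zscan4d and Zscan4f are copies of a gene that had no count in any library. The median GC content was 57.2% and the median number of CpG pairs 15, against 52% and 6 over all genes. These are matches of letters and say nothing of binding.

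The RNA-seq libraries held 10257329 to 21353383 counts, the m6A libraries 12892222 to 28334300 and the YTHDF2 series 8419106 to 23097887. The targeted gene went against its label. Ythdf2 averaged 1629 ± 1297, 1196 ± 99.3 and 1404 ± 37.0 normalized CPM (counts scaled to library size) in the libraries labelled cKO at 0, 2 and 4 h, against 243 ± 21.4, 74.6 ± 11.7 and 70.6 ± 15.6 in WT libraries (SD, n = 3 each). The table gives counts per gene, so whether these reads come from outside the deleted part cannot be told, and every direction below is that of the libraries labelled cKO. Markers of other cells differed too at 0 h. A list of 8 fibroblast genes summed to 19.05 to 68.42 CPM in cKO-labelled and 10.05 to 20.39 CPM in WT libraries, with 6 of 7 tested genes higher, and 8 oligodendrocyte lineage genes summed to 99.57 to 195.8 and 377.9 to 525.9 CPM, with 5 of 8 lower. The 8 astrocyte genes summed to 867.1 to 1197 and 1660 to 2535 CPM (4 of 8 lower), 8 young neuron genes to 14.41 to 35.37 and 75.83 to 110.9 CPM (3 higher and 3 lower of 8), and 10 neural stem cell genes to 5177 to 9126 and 10350 to 11380 CPM (1 higher and 4 lower of 10). Most of the sum of the 10 neural stem cell genes was Fabp7, at 4026 CPM in cKO-labelled and 8294 CPM in WT libraries. Vim went the other way (1744 and 640.7 CPM), and Sox9 was close (1699 and 1817 CPM). In both genotypes 4 of 6 microglia and 2 of 6 endothelium markers were at 0, with sums of at most 3.904 CPM in cKO-labelled and 3.286 CPM in WT libraries. The part of these cells in the results was not tested, and in bulk RNA fewer cells of a type and less RNA per cell cannot be told apart.

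Most of the 62 genes were expressed at low levels, and the few at higher levels came from all 3 families. In WT libraries at 0 h, 41 of 62 averaged above 1 TPM (a level scaled for length and library size) and 10 above 10 TPM, and in cKO-labelled libraries 8 were above 10 TPM. Among the 52 genes with enough counts to be tested, the median was 3.27 TPM in WT libraries, against 8.34 TPM over all 14029 tested genes. All 62 together took 0.0665% to 0.0710% of the counts in cKO-labelled and 0.0944% to 0.0993% in WT libraries at 0 h.

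Zscan21 (Zipro1), known from mouse cerebellar granule neuron precursors, was the highest. It had 41.6, 57.9 and 48.1 TPM in cKO-labelled and 106.9, 103.2 and 101.3 TPM in WT libraries at 0 h, so each cKO-labelled library lay below every WT library. Zkscan1, whose human gene is known for a circular RNA, had 14.0, 19.0 and 20.2 TPM in cKO-labelled and 46.8, 41.5 and 41.4 TPM in WT libraries, again without overlap. The counts per gene do not separate linear from circular RNA.

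Zbtb41 was the highest Zbtb gene, with 14.9, 12.4 and 12.7 TPM in cKO-labelled and 23.04, 24.3 and 23.01 TPM in WT libraries. Zbtb26 and its neighbour Zbtb6 on chromosome 2 averaged 15.6 ± 11.99 and 11.9 ± 0.735 TPM in cKO-labelled and 16.4 ± 2.08 and 15.7 ± 0.377 TPM in WT libraries. The wide spread of Zbtb26 came from the library cKO 1, at 29.5 TPM, beside 8.32 and 9.10 TPM in the other cKO-labelled libraries. Zbtb11 averaged 12.5 ± 4.32 TPM in cKO-labelled and 15.1 ± 1.38 TPM in WT libraries. Zkscan3, which represses autophagy and lysosome genes, averaged 12.3 ± 1.21 TPM in cKO-labelled and 18.6 ± 0.615 TPM in WT libraries, and Zkscan5 8.37 ± 4.85 and 15.5 ± 0.829 TPM. In WT libraries the neighbours in the order from Zbtb26 down to Zbtb44 (14.2 ± 1.19 TPM) differed by less than their spreads, while Zscan21, Zkscan1 and Zbtb41 stood apart from each other.

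Several genes with well-known roles were at lower levels. Zbtb20, a factor of hippocampal development, had 6.92, 10.6 and 13.6 TPM in cKO-labelled and 6.22, 9.26 and 8.11 TPM in WT libraries, which overlap. The methyl-CpG binders Zbtb33 (Kaiso), Zbtb4 and Zbtb38 averaged 7.76 ± 4.31, 3.05 ± 1.52 and 0.999 ± 0.623 TPM in cKO-labelled and 5.50 ± 0.235, 3.90 ± 0.425 and 1.57 ± 0.705 TPM in WT libraries. Zbtb17 (Miz-1), the partner of Myc, averaged 2.45 ± 0.493 and 2.48 ± 0.319 TPM, and Zbtb48 (TZAP), which binds telomeres, 2.51 ± 1.36 and 2.64 ± 0.601 TPM. Factors of blood lineages and germ cells stayed near 1 TPM or below: in cKO-labelled and WT libraries Zbtb7a (LRF) averaged 1.05 ± 0.371 and 0.798 ± 0.438 TPM, Zbtb16 (PLZF) 0.640 ± 0.170 and 0.654 ± 0.0695 TPM, Zbtb46 0.873 ± 0.251 and 0.688 ± 0.139 TPM, and Zbtb7b (ThPOK) 0.685 ± 0.297 and 0.333 ± 0.0778 TPM. The pluripotency gene Zscan10 averaged 0.0516 ± 0.0893 and 0.0211 ± 0.0366 TPM. The 6 Zscan4 copies on chromosome 7, which mark cleavage-stage embryos and act at telomeres, gave 1 count in all 18 RNA-seq libraries, and 5 of them had no count in any of the 33 libraries. As near-identical copies they could have shared reads that were not assigned to any of them in the authors' counting, so these values are uncertain.

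**Figure D1:**
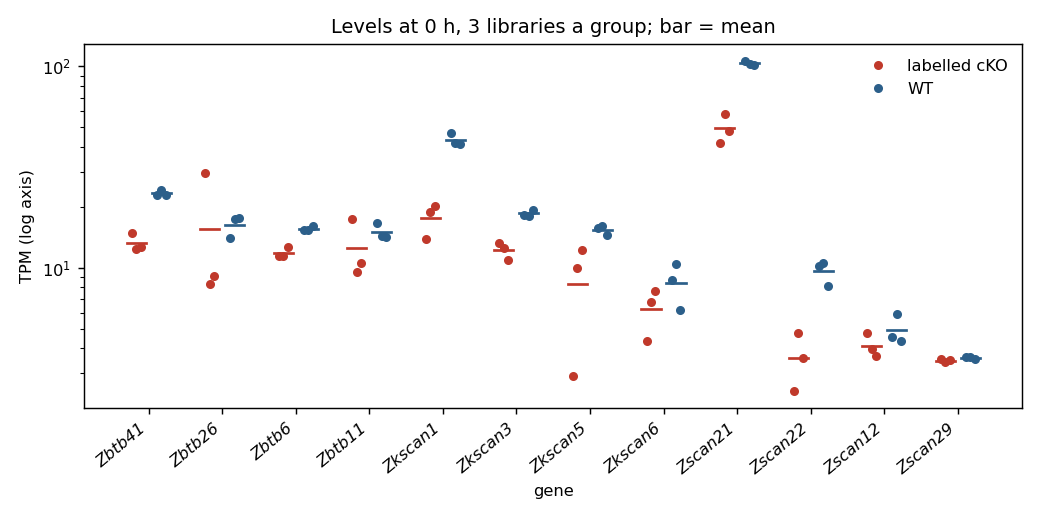
Levels at 0 h (TPM, log axis) of the 4 genes of each family that were highest in WT libraries, with each point a library and the bar the mean of 3; libraries labelled cKO stand to the left of WT libraries. Zscan21 and Zkscan1 lie at the top in both genotypes, with 41.6 to 57.9 and 14.0 to 20.2 TPM in cKO-labelled and 101.3 to 106.9 and 41.4 to 46.8 TPM in WT libraries.

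10 of the 62 genes had too few counts for a test in the RNA-seq libraries: Zbtb32, Zscan2, Zscan10, Zscan5b and the 6 Zscan4 copies. Of the other 52, 6 were lower and 0 were higher in cKO-labelled than in WT libraries at 0 h by edgeR's quasi-likelihood test at an adjusted p under 0.05. Over all 14029 genes tested 9.89% were lower and 7.71% were higher. At an unadjusted p under 0.05, 2 of the 52 were higher and 12 were lower, against 16.4% and 18.2% of all genes, and DESeq2 called 0 higher. The median log2 difference was -0.257 over the 52 genes and -0.005 over all genes.

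Zkscan1 was lower by 2.32-fold. It averaged 75.9 ± 11.5 CPM in cKO-labelled and 176.4 ± 8.97 CPM in WT libraries, a log2 difference of -1.22 (SE 0.16, edgeR adjusted p = 0.000237). Its neighbour Zscan21 averaged 59.5 ± 11.0 and 118.8 ± 1.07 CPM, a log2 difference of -1.0 (SE 0.22, edgeR adjusted p = 0.00779). Both genes were thus lower in all 3 cKO-labelled libraries than in any WT library.

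The other 4 were Zkscan16, Zscan30, Zbtb44 and Zbtb41. Zbtb44 had 4.88, 7.84 and 7.95 TPM in cKO-labelled and 15.6, 13.7 and 13.4 TPM in WT libraries (log2 -0.98, SE 0.29, edgeR adjusted p = 0.0298), and Zbtb41 had a log2 difference of -0.73 (SE 0.22, edgeR adjusted p = 0.0307). Zkscan16 had 0.599, 0.549 and 0.118 TPM in cKO-labelled and 2.35, 3.01 and 2.67 TPM in WT libraries, the largest difference of the 6 on the log2 scale, at -2.53 (SE 0.70, edgeR adjusted p = 0.0228). Zscan30 had 0.637, 1.39 and 0.690 TPM in cKO-labelled and 4.02, 2.51 and 2.56 TPM in WT libraries (log2 -1.64, SE 0.53, edgeR adjusted p = 0.0434). It overlaps Zfp397 over 11931 bases, and the strand used in counting is not given in the sources used here, so reads of such pairs cannot be told apart.

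These 4 calls ended when single libraries were left out. The Zbtb41 call ended without cKO 2, cKO 3 or any WT library (edgeR adjusted p 0.0675 to 0.0945), the Zbtb44 and Zscan30 calls without cKO 1, cKO 3 or any WT library (0.058 to 0.0865 and 0.0718 to 0.142), and the Zkscan16 call without cKO 3 or any WT library (0.0529 to 0.0748). With the count at 2 without cKO 3 and without each WT library, only Zkscan1 and Zscan21 were called at 0 h under every single library left out. The Zscan21 call ended when the libraries numbered WT 1 or WT 3 were left out at all hours (edgeR adjusted p 0.0751 at most), and the Zkscan1 call did not.

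The families differed in their medians, as a description. All 9 Zkscan genes had a log2 difference below 0 at 0 h (median -0.52, down to -0.03 for Zkscan17, which lies within the shift of 0.0825 that all genes take with library size alone). Of 7 tested Zscan genes 6 were below 0 (median -0.66), and the 36 Zbtb genes split into 18 above and 18 below (median 0.002). The Zkscan genes without a call included Zkscan3 (log2 -0.52, SE 0.22, edgeR adjusted p = 0.101) and Zkscan5 (log2 -0.83, SE 0.41, edgeR adjusted p = 0.157). Among the Zscan genes, Zscan22 came closest, with 2.44, 4.74 and 3.58 TPM in cKO-labelled and 10.2, 10.5 and 8.18 TPM in WT libraries (log2 -1.34, SE 0.47, edgeR adjusted p = 0.0554).

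At 2 h, 2 of the 52 were higher and 5 lower in cKO-labelled than in WT libraries, against 8.52% higher and 8.54% lower over all genes. Zkscan1 had 7.31, 5.67 and 5.55 TPM in cKO-labelled and 15.2, 13.9 and 13.1 TPM in WT libraries (log2 -1.18, SE 0.16, edgeR adjusted p = 0.000258). Zbtb44 (log2 -1.25, edgeR adjusted p = 0.00979) and Zbtb41 (log2 -0.85, edgeR adjusted p = 0.0162) were lower again. They were joined by Zbtb34, with 0.0825, 0.0673 and 0.138 TPM in cKO-labelled and 0.334, 0.677 and 0.420 TPM in WT libraries (log2 -2.31, SE 0.46, edgeR adjusted p = 0.00389), and by Zscan29 (log2 -0.77, edgeR adjusted p = 0.0338), which overlaps Adal and Tubgcp4 on the genome. Zbtb34 rested on few counts, 7, 5 and 7 in cKO-labelled and 22, 34 and 32 in WT libraries. It had no call at 0 or 4 h.

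The higher genes at 2 h were Zscan20 and Zbtb7c. Zbtb7c had 3.42, 1.54 and 1.49 TPM in cKO-labelled and 0.966, 0.604 and 0.796 TPM in WT libraries (log2 1.45, SE 0.36, edgeR adjusted p = 0.0133), and its annotation overlaps a long noncoding RNA gene over 6915 bases. Zscan20 was near the limit of detection, with 0.116, 0.165 and 0.195 TPM in cKO-labelled and 0.0187, 0.0245 and 0.0484 TPM in WT libraries (log2 2.23, SE 0.71, edgeR adjusted p = 0.041), and at 4 h its groups overlapped.

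At 4 h, 2 were higher and 4 lower, against 11% higher and 9.11% lower over all genes. Zkscan1 had 2.52, 2.43 and 2.21 TPM in cKO-labelled and 5.67, 4.51 and 4.99 TPM in WT libraries (log2 -1.11, SE 0.16, edgeR adjusted p = 0.000423). Zbtb44 (log2 -1.28, edgeR adjusted p = 0.00724), Zscan29 (log2 -0.78, edgeR adjusted p = 0.0281) and Zbtb26 (log2 -1.31, edgeR adjusted p = 0.0467) were lower as well. Zbtb7c was higher again, with 1.25, 0.574 and 0.854 TPM in cKO-labelled and 0.339, 0.342 and 0.246 TPM in WT libraries (log2 1.5, edgeR adjusted p = 0.014). Zbtb25 had 1.139, 1.73 and 3.99 TPM in cKO-labelled and 0.821, 0.953 and 0.738 TPM in WT libraries (log2 1.41, edgeR adjusted p = 0.0344), while Zbtb1, whose annotation overlaps that of Zbtb25 by 164 bases, did not pass the test at any hour (edgeR adjusted p = 0.0639, 0.287 and 0.27 at 0, 2 and 4 h). Scaling to library size alone gave 7 higher and 2 lower genes at 4 h and moved the median of all genes to 0.273.

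Zkscan1 and Zbtb44 were lower in cKO-labelled libraries at all 3 hours, as were 4.16% of all genes tested. The log2 differences at 0, 2 and 4 h were -1.22, -1.18 and -1.11 for Zkscan1 and -0.98, -1.25 and -1.28 for Zbtb44. The hours are not independent of each other, since libraries of the same number and genotype deviated together across hours (correlation 0.177 to 0.796). The Zkscan1 call held without any single library, and without all libraries of any 1 number and genotype, with an edgeR adjusted p of at most 0.0126. The Zbtb44 call at 4 h ended without the libraries numbered WT 1 or WT 3 at all hours (edgeR adjusted p 0.0581 to 0.06). At 2 h calls ended without single libraries for Zbtb41 (cKO 3, WT 2 or WT 3, adjusted p 0.0524 to 0.0815), Zbtb44 (cKO 2 or cKO 3, 0.0505 to 0.0541), Zbtb7c (WT 2, 0.0598), Zscan20 (cKO 2, cKO 3 or any WT library, 0.0713 to 0.136) and Zscan29 (cKO 2, cKO 3, WT 1 or WT 3, 0.0652 to 0.163). At 4 h they ended for Zbtb25 and Zbtb26 (cKO 2, cKO 3 or any WT library, 0.0502 to 0.264 and 0.0561 to 0.181), Zbtb7c (WT 3, 0.0691) and Zscan29 (cKO 3, WT 2 or WT 3, 0.0552 to 0.127).

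The library cKO 1 stood apart at 0 h, with 3117 CPM of Ythdf2. Without the libraries numbered cKO 1 at all hours, edgeR called 1 gene higher and 8 lower at 0 h, 6 and 8 at 2 h, and 9 and 8 at 4 h, while the shares of all genes were 14.1% and 16.8%, 18.9% and 18.9%, and 21% and 18.1%. Counts of these genes thus moved together with those of all genes.

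**Figure D2:**
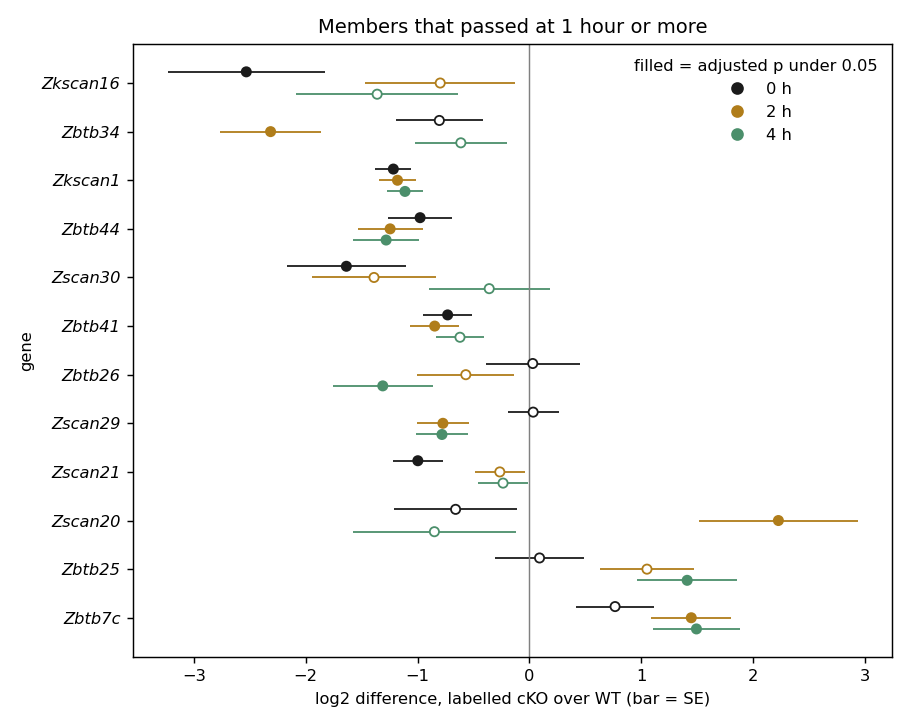
Log2 difference, libraries labelled cKO over WT, at 0, 2 and 4 h for the 12 genes called at 1 or more hours, with bars for the SE of the edgeR fit (n = 3 each) and filled points for an adjusted p under 0.05. Zkscan1 and Zbtb44 lie below 0 with filled points at each hour, and Zbtb7c lies above 0 with filled points at 2 and 4 h.

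Genes related by domain but not by name were set beside these, with the same test. Of 9 tested SCAN-domain genes of other names 4 were lower at 0 h and 0 higher: Peg3 (log2 -1.88), an imprinted gene, Zfp287 (-1.41), Zfp445 (-1.26), which keeps imprints in mouse, and Zfp110 (-1.17). Of 7 BTB zinc fingers of other names, Mynn was lower (-0.85), and among 15 corepressors and partners Sin3a (-0.79) and Ncor1 (-0.49) were lower and Sin3b (1.29) higher. At 2 and 4 h 4 and 1 of the 9 SCAN-domain genes were lower. Zfp445 was lower at both hours (log2 -1.20 and -1.04), Mynn likewise (-0.97 and -1.0), and Sin3b was higher at both (1.05 and 1.11).

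The time course asked how fast transcripts were lost once transcription was blocked. Values at each hour are relative to the other RNA in the same library, so a loss here is a loss faster than that of the typical transcript. Of the 52 genes 30 had fallen at 4 h in cKO-labelled libraries and 36 in WT libraries (edgeR adjusted p under 0.05), against 18% and 24.2% of all genes. None had risen in either genotype at 2 or 4 h, by edgeR at an adjusted or an unadjusted p under 0.05 (0 genes) or by DESeq2 (0 genes). With the replicate number as a block, edgeR called 1 gene higher at 2 h in cKO-labelled libraries, Zbtb4 (log2 0.52). Over all genes 2.21% had risen at 2 h and 12.1% at 4 h in cKO-labelled libraries, and 3.63% and 15.6% in WT libraries. At 2 h 19 had fallen in cKO-labelled and 26 in WT libraries, against 9.85% and 13.7% of all genes. The median log2 change at 4 h was -1.45 in cKO-labelled and -1.98 in WT libraries, against 0.083 and 0.005 over all genes.

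Between both genotypes 27 genes were shared among those that fell at 4 h, 90% of the 30 and 75% of the 36. Of all 14029 genes tested 2211 (15.8%) fell in both, out of 2528 in cKO-labelled and 3402 in WT libraries. Over all genes, too, most that fell in 1 genotype thus fell in the other. Zbtb10, known as a repressor of Sp transcription factors, had 8.78, 6.42 and 5.42 TPM at 0 h, 1.18, 0.788 and 0.877 TPM at 2 h and 0.646, 0.158 and 0.191 TPM at 4 h in cKO-labelled libraries. In WT libraries it had 8.35, 7.71 and 9.30 TPM at 0 h, 1.32, 0.582 and 0.988 TPM at 2 h and 0.918, 0.560 and 0.440 TPM at 4 h. The 4 h log2 changes were -3.98 (SE 0.46, edgeR adjusted p = 6.04e-06) and -3.21 (SE 0.44, edgeR adjusted p = 2.19e-05).

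Zkscan6 had 4.36, 6.79 and 7.66 TPM at 0 h and 0.0733, 0.786 and 0.347 TPM at 4 h in cKO-labelled libraries, and 8.69, 10.5 and 6.17 TPM at 0 h and 0.198, 0.566 and 0.0814 TPM at 4 h in WT libraries. Its log2 change was -3.54 (SE 0.63) in cKO-labelled and -4.45 (SE 0.68) in WT libraries, the largest of the 52 in WT. Zbtb8a (-3.58 and -3.20), Zbtb39 (-3.49 and -3.00), Zbtb2 (-3.07 and -3.12), Zbtb9 (-3.64 and -2.64) and Zbtb24 (-3.38 and -2.35), whose human gene is mutated in the ICF immunodeficiency syndrome, passed the test in both genotypes. Zkscan14 (-3.63) and Zkscan4 (-3.34) passed in WT libraries only, with log2 changes of -1.39 (edgeR adjusted p = 0.117) and -2.0 (edgeR adjusted p = 0.0542) in cKO-labelled libraries, and the difference between genotypes did not pass a test. By library number Zkscan14 changed by 0.38, -1.17 and -1.62 in cKO-labelled libraries, which had 0.461, 2.61 and 3.58 TPM at 0 h. The Zkscan4 call in WT libraries ended without the libraries numbered WT 3 (edgeR adjusted p = 0.0542).

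Zscan21 and Zkscan1, the genes with the highest levels, fell too. Zscan21 had 41.6, 57.9 and 48.1 TPM at 0 h, 24.4, 25.9 and 23.3 TPM at 2 h and 12.5, 8.36 and 6.40 TPM at 4 h in cKO-labelled libraries, and 106.9, 103.2 and 101.3 TPM at 0 h, 25.1, 33.9 and 29.9 TPM at 2 h and 10.9, 11.8 and 8.57 TPM at 4 h in WT libraries. At 2 and 4 h the genotypes overlapped, while at 0 h they were apart. Its log2 change at 4 h was -2.04 (SE 0.23) in cKO-labelled and -2.80 (SE 0.24) in WT libraries. Zkscan1 fell by 2.48 (SE 0.17) and 2.59 (SE 0.17) on the log2 scale, and Zbtb6 by 2.74 (SE 0.22) and 2.73 (SE 0.21).

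At 4 h 13 of the 52 genes did not pass the test in either genotype. Zbtb20 had 6.92, 10.6 and 13.6 TPM at 0 h, 6.31, 12.2 and 12.3 TPM at 2 h and 6.68, 9.38 and 11.0 TPM at 4 h in cKO-labelled libraries, with a 4 h log2 change of 0.22 (edgeR adjusted p = 0.594), and 0.33 (edgeR adjusted p = 0.36) in WT libraries. Zbtb4 (0.02 and -0.14), Zbtb41 (-0.27 and -0.38), Zkscan5 (-0.45 and -0.80) and Zscan18 (0.42 and -0.35) had no call either. By library number Zkscan5 changed by 1.33, -0.72 and -1.47 in cKO-labelled libraries, which had 2.93, 9.96 and 12.2 TPM at 0 h. Among the other methyl-CpG binders, Zbtb33 fell in both genotypes (log2 -1.07 and -1.28). Zbtb38 had log2 changes of -0.15 in cKO-labelled libraries (edgeR adjusted p = 0.844) and -2.02 in WT libraries (edgeR adjusted p = 0.00589), and its difference in slope did not pass the test (edgeR adjusted p = 0.444). By library number (0.5 CPM added) Zbtb38 changed by 1.04, 0.01 and -1.14 in cKO-labelled and -1.66, -1.68 and -1.29 in WT libraries. The cKO-labelled libraries thus disagreed in sign, from 0.335, 1.09 and 1.57 TPM at 0 h.

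**Figure D3:**
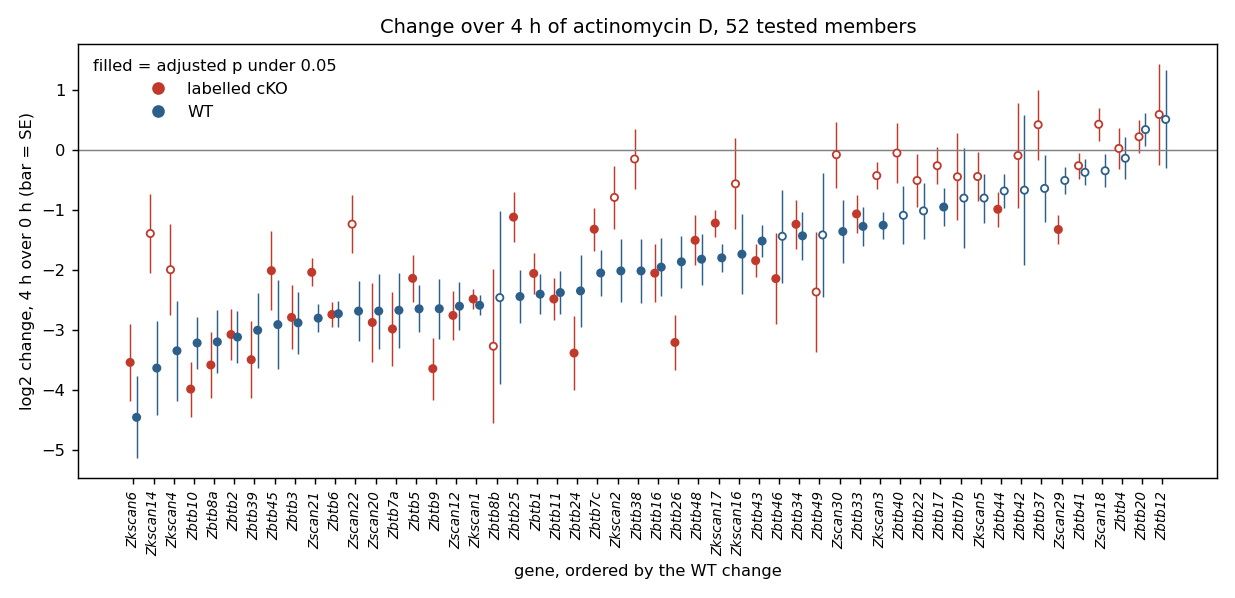
Log2 change from 0 to 4 h of actinomycin D for the 52 tested genes in libraries labelled cKO and in WT libraries, from the edgeR fit (n = 3 each). Most points lie below 0 in both genotypes, with medians of -1.45 in cKO-labelled and -1.98 in WT libraries.

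**Figure D4:**
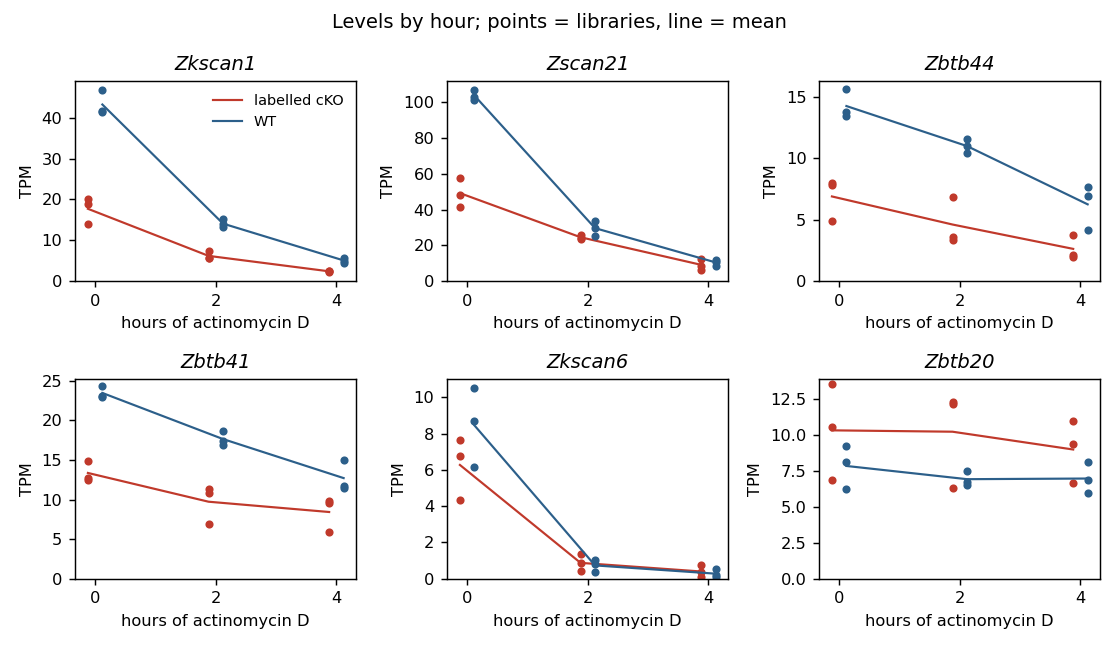
TPM by hour of actinomycin D (0, 2 and 4 h, linear axis from 0) in each library labelled cKO and each WT library for Zkscan1, Zscan21, Zbtb44, Zbtb41, Zkscan6 and Zbtb20. Zkscan1 stays lower in cKO-labelled libraries at each hour, Zscan21 differs by genotype at 0 h and comes together later, and Zbtb20 shows no called change with the hour.

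The difference between genotypes in the rate of loss was tested as the difference in slope over 0, 2 and 4 h. None of the 52 genes passed (edgeR, smallest adjusted p = 0.417), and 1 of all 14029 genes did (0.00713%). At an unadjusted p under 0.05, 5 of the 52 had a higher slope in cKO-labelled libraries and 0 a lower one, against 6.07% and 2.37% of all genes, and DESeq2 called 0. The 4 with the smallest p were Zkscan3 (0.21 log2 per hour, SE 0.08), Zbtb38 (0.46, SE 0.17), Zkscan14 (0.64, SE 0.26) and Zscan21 (0.19, SE 0.08), with edgeR adjusted p of 0.417, 0.444, 0.488 and 0.5. All 4 had the positive sign of a slower loss in cKO-labelled libraries, as had all 9 Zkscan genes and 35 of the 52, against 54.9% of all genes. The 0 h libraries enter both the slope and the genotype difference at 0 h, so the signs of both are not independent. In that difference all 9 Zkscan genes and 33 of the 52 lay below 0. For Zkscan1 the slopes differed by 0.03 log2 per hour (SE 0.05, edgeR adjusted p = 0.954).

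Most BTB zinc fingers of other names fell as well. In both genotypes Bcl6, Hic2, Mynn, Zfp131, Gzf1 and Patz1 were lower at 4 h, 6 of 7 tested, with log2 changes in WT libraries of -0.88 (Gzf1) to -2.28 (Mynn). Of 9 tested SCAN-domain genes of other names 4 fell in cKO-labelled libraries and 4 in WT libraries, with Zfp287 (-1.67 and -3.09), Zfp110 (-1.66 and -2.55) and Zfp174 (-2.27 and -2.08) in both. Among 15 corepressors and partners, Bcor (-2.87 and -2.54) and Sin3a (-1.53 and -2.38) were among those that fell in both, and Cbx1 and Hdac3 rose in both.

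In the m6A pull-down 5 of 53 tested genes were higher than in the input and 0 were lower (edgeR adjusted p under 0.05), against 6.06% higher and 14.3% lower over all 14167 genes. At an unadjusted p under 0.05, 12 were higher and 0 lower, against 13.9% and 19.4% of all genes. DESeq2 called 8 higher and 0 lower, against 8.96% and 14.4% of all genes. The log2 differences were small, with a median of 0.243 over the 53 genes and 0.010 over all genes, and 48 of the 53 lay above 0, against 51% of all genes.

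Zkscan5 led, with 75.2, 70.1 and 85.9 CPM in the m6A pull-down and 56.2, 57.7 and 63.3 CPM in the input (log2 0.38, SE 0.09, edgeR adjusted p = 0.0203). Zbtb43 had 42.9, 38.5 and 40.8 CPM and 30.6, 32.9 and 34.8 CPM (log2 0.31, edgeR adjusted p = 0.0404). Zbtb6 had 113, 107 and 113 CPM in the pull-down and 96.2, 83.1 and 90.3 CPM in the input (log2 0.31, edgeR adjusted p = 0.0218). In each of these genes every pull-down library lay above every input library.

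Zkscan1 had 375, 338 and 382 CPM in the m6A pull-down and 318, 304 and 297 CPM in the input (log2 0.25, edgeR adjusted p = 0.0375), and Zbtb41 had 106, 113 and 108 CPM and 91.8, 92.9 and 91.1 CPM (log2 0.24, edgeR adjusted p = 0.0318). Zbtb7a (0.50), Zbtb42 (0.75) and Zbtb8b (0.67) had larger differences that did not pass (edgeR adjusted p = 0.0908, 0.37 and 0.282), and Zbtb45 had the lowest (-0.37, edgeR adjusted p = 0.537). Pull-down and input libraries of the same number deviated together, and with that number as a block 13 genes passed and 17.2% of all genes, the 5 above among them and also Zbtb37, Zbtb24, Zkscan3, Zbtb22, Zbtb3, Zbtb7b, Zbtb5 and Zscan21. Without single libraries 0 to 7 genes passed. The Zbtb41 call ended without any 1 of the 6 libraries (edgeR adjusted p 0.0602 to 0.101), and the others without 3 to 5 of them: Zkscan5 (0.0509 to 0.0847), Zbtb6 (0.0631 to 0.0845), Zbtb43 (0.065 to 0.133) and Zkscan1 (0.0504 to 0.147). With library size alone 29 passed, when 25.6% of all genes did and their median moved to 0.221.

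In the YTHDF2 series, a library titled Input is described as YTHDF2 and the reverse. The descriptions, which match the count columns, were used here. By them the inputs had rank correlations of 0.955 to 0.961 with the m6A inputs across genes, the YTHDF2 libraries 0.949 to 0.956 and the IgG libraries 0.951 to 0.958. These ranges overlap, so they do not tell the groups apart. Labels are the sole basis of the grouping, and with the titles every difference between YTHDF2 and input turns round. By the descriptions 37 of 52 tested genes were higher in the YTHDF2 pull-down than in the input and 1 was lower (edgeR adjusted p under 0.05), against 30.7% and 17.5% of all 14255 genes. Over the IgG pull-down 21 were higher and 0 lower, against 14.3% and 0.33% of all genes. At an unadjusted p under 0.05, 29 were higher and 0 lower than IgG, against 20.5% and 5.35% of all genes, and DESeq2 called 0 lower. The median log2 difference from IgG was 0.773 over the 52 genes and -0.077 over all genes. With the replicate block 31 were higher and 1, Zscan18, lower than IgG (22% and 8.9% of all genes).

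Zbtb25 led, with 83.9, 102 and 91.1 CPM in the YTHDF2 pull-down, 15.1, 15.5 and 15.7 CPM in the IgG pull-down and 14.0, 17.8 and 17.8 CPM in the input. Its log2 difference from IgG was 2.58 (SE 0.16, edgeR adjusted p = 2.62e-06), and with the titles it would be 0.097 (edgeR adjusted p = 0.665). Zbtb1, which overlaps it by 164 bases, reached 0.79 (edgeR adjusted p = 0.00858). Zbtb22 had 31.6, 25.6 and 31.0 CPM with YTHDF2, 5.71, 7.14 and 5.97 CPM with IgG and 8.78, 11.2 and 4.42 CPM in the input (log2 2.22 over IgG, edgeR adjusted p = 0.000198). Both lay far above the IgG and input libraries.

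Zkscan1 had 543, 703 and 662 CPM with YTHDF2, 228, 181 and 200.3 CPM with IgG and 262, 204 and 247 CPM in the input (log2 1.65 over IgG, SE 0.17, edgeR adjusted p = 4.56e-05). Zbtb3 (1.99), Zbtb8b (1.98), Zscan22 (1.58), Zbtb5 (1.55) and Zbtb42 (1.54) completed the 8 largest. The Zbtb42 call ended without IgG 1, IgG 3, YTHDF2 2 or YTHDF2 3 (edgeR adjusted p 0.0593 to 0.112), and the Zbtb8b call without IgG 1, IgG 3 or YTHDF2 2 (0.0708 to 0.117).

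By family, 17 of 35 tested Zbtb, 3 of 9 Zkscan and 1 of 8 Zscan genes were higher than IgG, against 14.3% of all genes. At an unadjusted p under 0.05 by edgeR 19 Zbtb, 7 Zkscan and 3 Zscan genes were higher, against 20.5% of all genes. The median log2 differences were 0.787, 0.878 and 0.424, and differences between families were not tested. The Zkscan genes called at the adjusted threshold were Zkscan1, Zkscan5 (log2 1.52) and Zkscan6 (1.28), and the Zscan gene was Zscan22. Zbtb33 (1.48) and Zbtb38 (0.93) passed among the methyl-CpG binders, and Zbtb4 (0.52, edgeR adjusted p = 0.232) did not. Zscan21, the highest of all 62 genes in the RNA-seq libraries, had log2 differences of 0.17 from IgG (edgeR adjusted p = 0.583) and -0.27 from the input (edgeR adjusted p = 0.232). Zbtb44, lower in cKO-labelled libraries at all 3 hours, had 0.01 and 0.12 (edgeR adjusted p = 0.988 and 0.757).

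The IgG pull-down itself held some of these transcripts. 9 of the 52 were higher in IgG than in the input and 2 lower, against 20.2% and 17% of all genes, with 12 and 0 under library size alone and 8 and 5 with RLE factors. Zscan18 had 33.5, 56.7 and 69.3 CPM with YTHDF2 and 49.9, 77.7 and 83.6 CPM with IgG, against 9.53, 10.2 and 12.4 CPM in the input, so its log2 differences from the shared input were 2.32 with YTHDF2 and 2.72 with IgG. Its annotation overlaps that of Zfp329 by 7889 bases. Zbtb48 had 15.2, 15.1 and 12.3 CPM with YTHDF2, 18.5, 21.2 and 16.1 CPM with IgG and 7.24, 4.75 and 5.96 CPM in the input. Zkscan2 (2.08), Zbtb40 (1.33), Zbtb11 (1.16), Zbtb49 (0.90), Zbtb17 (0.70), Zkscan3 (0.56) and Zbtb38 (0.49) were the other 7. Of the 9, Zbtb38 was also called in YTHDF2 over IgG, a comparison that shares the IgG libraries. Zbtb33 (-1.0) and Zbtb20 (-0.47) were lower in IgG than in the input. The Zbtb20 call ended without any 1 of the 6 libraries (edgeR adjusted p 0.0593 to 0.115), the Zbtb33 call without IgG 1, input 2 or input 3 (0.0696 to 0.073), the Zkscan3 call without IgG 3, input 1 or input 3 (0.0641 to 0.0704) and the Zbtb49 call without IgG 2 (0.0603).

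Zbtb20 was the 1 gene called lower in the YTHDF2 pull-down than in the input by edgeR, and 4 of the 52 had log2 differences below 0. It had 43.3, 59.4 and 48.5 CPM with YTHDF2, 53.6, 60.1 and 60.1 CPM with IgG and 87.0, 75.8 and 77.3 CPM in the input. The log2 difference from the input was -0.67 (SE 0.16, edgeR adjusted p = 0.00482), and the call ended on log2(TPM + 1) with limma (adjusted p = 0.237). It did not pass against IgG (log2 -0.20, edgeR adjusted p = 0.452).

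Over both input and IgG 20 of the 52 genes were higher with YTHDF2, against 11.1% of all genes. All 5 genes of the m6A set were among them, 100% of the 5 and 25% of the 20. Of all genes tested in both series 361 (2.65%) were higher in all 3 comparisons. Over all genes 858 were higher in the m6A pull-down and 1579 with YTHDF2 over both input and IgG. The 361 are a part of these 2 sets, as the 5 genes are of the 5 and of the 20. The 5 were Zkscan1, Zkscan5, Zbtb6, Zbtb41 and Zbtb43. With the titles their log2 differences from the input would be -1.42, -0.97, -1.42, -1.34 and -0.66, so none of them would be among the genes higher than the input. Zbtb6 had 165, 261 and 244 CPM with YTHDF2, 75.6, 97.9 and 81.9 CPM with IgG and 90.04, 73.3 and 87.4 CPM in the input. Zbtb41 had 149, 213 and 190.2 CPM with YTHDF2, 78.3, 108 and 90.4 CPM with IgG and 66.0, 82.6 and 68.6 CPM in the input. Of the YTHDF2 calls of these 5 genes, that of Zbtb43 over the input was the least firm (log2 0.66, edgeR adjusted p = 0.0214). It ended with DESeq2 (0.0674), with RLE factors (0.0686) and without input 1, input 3 or YTHDF2 2 (0.0544 to 0.0961). The m6A calls of all 5 also ended when single libraries were left out, that of Zbtb41 without any 1 of the 6.

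In the RNA-seq libraries Zkscan1 was lower in cKO-labelled libraries at all 3 hours and Zbtb41 at 0 and 2 h, while Zbtb6 (log2 -0.32, edgeR adjusted p = 0.253 at 0 h), Zbtb43 and Zkscan5 (log2 -0.83 at 0 h) had no genotype call at any hour. Differences between these genes were not tested. Zkscan1, Zbtb6 and Zbtb43 fell with actinomycin D in both genotypes, and Zbtb41 and Zkscan5 did not pass. Across members the log2 difference in the m6A pull-down and that of YTHDF2 over the input had Pearson's r of 0.373 and Spearman's rho of 0.416 (n = 52 genes). That of YTHDF2 over IgG and the WT change at 4 h had r of -0.336 and rho of -0.358 (n = 51), and that in the m6A pull-down and the WT change had r of -0.0304 and rho of -0.077 (n = 52). These are descriptions across genes, which share libraries and depth and are not independent replicates.

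**Figure D5:**
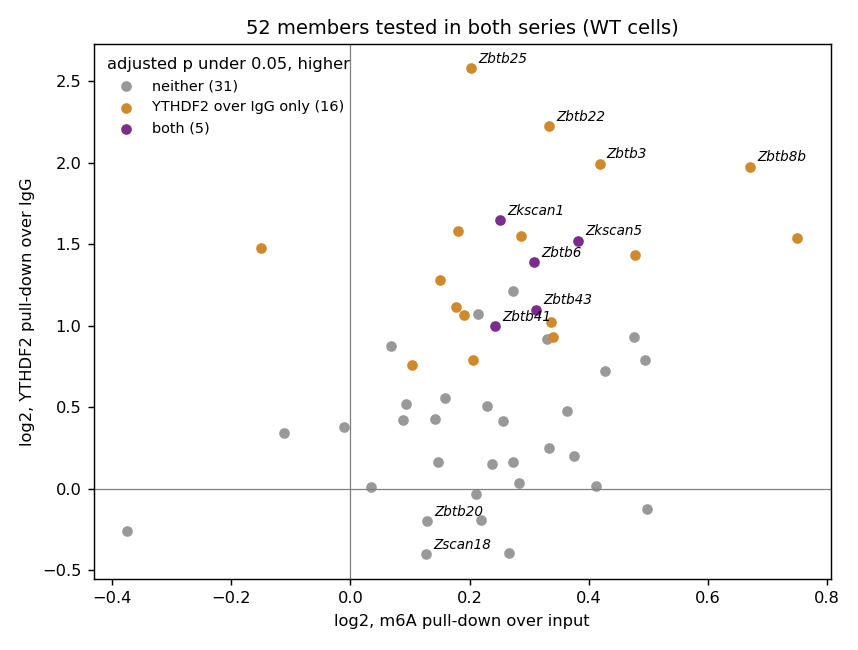
Log2 difference of the m6A pull-down over input (x axis) and of the YTHDF2 over the IgG pull-down (y axis) for the 52 genes tested in both series, marked by their calls in the edgeR fits (n = 3 libraries each). The 5 genes called in both lie above 0 on both axes. Their m6A differences ran from 0.24 (Zbtb41) to 0.38 (Zkscan5), beside a median of 0.243 and a largest value of 0.75 over the 53 genes tested for m6A. 16 were called over IgG alone, 31 in neither and 0 in the m6A pull-down alone.

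The comparison lists differed in the pull-downs. Of 7 BTB zinc fingers of other names Gzf1 (log2 0.32) and Mynn (0.30) were higher in the m6A pull-down, and Gzf1 (0.94), Zfp131 (0.86) and Patz1 (0.70) were higher with YTHDF2 than with IgG. Of the SCAN-domain genes of other names 1 of 9 was higher in the m6A pull-down, Zfp263 (0.43), and 0 of 10 were called over IgG. Of 15 corepressors and partners 7 were lower in the m6A pull-down, from Sin3b (-0.74) to Hdac1 (-0.22), Setdb1 was higher (0.39), and 0 were called over IgG.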

How the data were processed

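RNA-seq (SMART-seq2, per the labels' protocols) and pull-down libraries (modified SMART-seq3) gave a count and a TPM value per gene. Per the submitters' processing notes, bcl2fastq 2.17.1.14, Trimmomatic 0.32, STAR 2.5.2a and GRCm38 were used. The counting tool is not given in the sources used here, nor is the strand. The authors deposited whole-number counts, which entered every main test, and deposited TPM values, which gave levels and entered 1 alternative on log2(TPM + 1).

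The assays were fitted separately, each over all its genes, with edgeR 4.0.16 (R 4.3.3): TMM factors, filterByExpr (minimum count 10), quasi-likelihood tests by contrasts, two-sided, with p-values adjusted by Benjamini-Hochberg and a threshold of 0.05. The slope difference fitted hour as a number. Normalized CPM are on the TMM-adjusted library size. Alternatives were RLE factors, library size alone, DESeq2 1.42.0, no filter, limma 3.58.1 on TPM, a replicate block, each library left out and, for the YTHDF2 series, groups by the titles. Leaving out all libraries of 1 number and genotype was added after the data were seen. Where a group had 2 libraries left, the fit over all groups gave the spread. The scripts were tested on simulated data.

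Deviations of same-numbered libraries from their group means correlated at 0.109 to 0.504 in the m6A series, 0.409 to 0.705 in the YTHDF2 series and 0.177 to 0.796 between hours of 1 genotype. Those numbers were therefore taken to pair the libraries in the block, though no label says so. The main tests left the pairing out. Under the block no call of these genes was lost, and 8 were gained in the m6A pull-down, 11 in YTHDF2 over IgG and 5 at 4 h in WT libraries. Across genotypes same-numbered libraries shared only a number.

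The members and lists were chosen with earlier results of these data known. Genes were named by rule: textbook roles, per comparison up to 8 called genes each way with the largest log2 change, those called in all pull-down comparisons, the 4 highest of each family, the 4 with the smallest slope p, and called genes of the comparison lists. Other names (Zscan22 in the genotype comparison, Zbtb45, Zbtb42 and Zbtb8b in the m6A pull-down, and the genes gained under the block) were chosen after their values were seen. Zbtb14, Zbtb18 and Zkscan8 are not symbols of the table. The values of 1 gene of the corepressor list are not reported here.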

Additional observations from a re-analysis of the deposited data

Results flagged for a closer look

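Zscan18, a SCAN zinc finger gene of chromosome 7 whose annotation overlaps that of Zfp329, had changes of opposite sign in the 2 genotypes between 0 and 4 h of actinomycin D, for each of the 3 library numbers. Its log2 change between libraries of the same number was 0.475, 0.515 and 0.156 in cKO-labelled libraries, against -0.380, -0.178 and -0.379 in WT libraries, and the means differed by 0.694. The difference in slope was 0.20 log2 per hour (SE 0.10) and did not pass the test (edgeR adjusted p = 0.612). Neither change passed on its own (edgeR adjusted p = 0.256 in cKO-labelled and 0.325 in WT libraries).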

How the results depend on the processing

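Counts of called genes moved with the setting. The log2(TPM + 1) model called 14 genes lower at 0 h, 1 higher at 2 h, 0 higher and 2 lower at 4 h, 43 higher in the m6A pull-down, 0 lower in YTHDF2 over input, and 14 higher and 0 lower in IgG over input. Library size alone gave 7 higher and 2 lower at 4 h, 29 higher in the m6A pull-down and 0 lower in IgG over input. DESeq2 gave 5 higher at 4 h, 8 higher in the m6A pull-down, 2 lower in YTHDF2 over input and 5 lower in IgG over input, and RLE factors gave 2 and 5 lower in these last comparisons. Without the filter 1 gene was higher at 2 h, and the Zscan30 call at 0 h ended there and with library size alone. With the replicate block 1 gene (Zbtb4, log2 0.52) rose in cKO-labelled libraries at 2 h, 13 were higher in the m6A pull-down, 1 was lower in YTHDF2 over IgG and 6 were lower in IgG over input. No call of a named gene ended under the block. Across genotypes same-numbered libraries correlated at -0.207 to 0.0768, so the numbers were not taken to pair them, and the block gave 0 higher and 7 lower at 0 h, 2 and 5 at 2 h, and 2 and 6 at 4 h.

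With 1 library, or all libraries of 1 number and genotype, left out, genotype calls ranged over 0 to 1 higher and 1 to 8 lower at 0 h, 0 to 6 and 2 to 8 at 2 h, and 0 to 9 and 1 to 8 at 4 h. The calls lost with the hour ranged over 10 to 21 (2 h) and 21 to 30 (4 h) in cKO-labelled and 12 to 22 and 28 to 34 in WT libraries, with 10 without all libraries numbered cKO 2 and 12, 13 and 17 without WT 1, WT 2 and WT 3 at 2 h. In the pull-downs they ranged over 0 to 7 (m6A), 30 to 37 (YTHDF2 over input), 17 to 24 (YTHDF2 over IgG), and 7 to 9 higher and 0 to 2 lower (IgG over input).

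Grouping the YTHDF2 series by the titles gave 1 higher and 37 lower over input, 2 higher and 9 lower over IgG, and 0 higher and 21 lower in IgG over input. The log2 difference over input turned to 0.67 for Zbtb20, -1.84 for Zbtb22, -2.48 for Zbtb25, -2.38 for Zbtb3, -1.34 for Zbtb41, -0.66 for Zbtb43, -1.42 for Zbtb6, -1.65 for Zbtb8a, -1.79 for Zbtb8b, -1.42 for Zkscan1, -2.09 for Zkscan2, -0.97 for Zkscan5, -1.59 for Zkscan6 and -2.32 for Zscan18. Over IgG it turned to -0.38 for Zbtb3, -0.35 for Zbtb41 and -0.027 for Zbtb6, and in IgG over input to 0.20 for Zbtb20, -0.15 for Zbtb40, -0.20 for Zbtb49, -0.016 for Zkscan2 and -0.032 for Zkscan3. The titles exchange the libraries, which turns the signs. For the other settings the cause was not tested. Genes near 1 CPM rest on few counts, and differences there were limited by depth.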
